A study of Mus musculus with 3 samples.

Results

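The 6 signalling genes followed here across cells of the mouse small intestine are the alarmin Il33, the lymphoid survival factor Il7, the macrophage growth factor Csf1, the TNF-family cytokine Tnfsf11 (RANKL), and the growth factors Tgfb1 and Tgfb2. They were taken by symbol from the gene rows, 6 of 32285, without a cut on measured values. Earlier results of these data were known when the genes were chosen. Lymphatic endothelial cells (LEC) carried Il33, Il7, Tgfb1 and Tgfb2 at 150 to 433 CPM (the UMI count of a gene scaled to a common class total) in each of the 3 libraries. Csf1 stood higher in fibroblasts and glia. Tnfsf11 came to 92 UMIs in 35 cells, and 27 of these cells also held the leukocyte gene Ptprc.

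The cells came from wild-type C57Bl/6 female mice aged 9 to 10 weeks, with no treatment named. Each of the 3 libraries pools the intestines of 4 mice, without the duodenum, after removal of epithelium and digestion for 60 min at 37 °C. Live CD45-negative cells positive for CD31 and for podoplanin, a membrane protein of lymphatic endothelium, were sorted in an enrichment mode that left other cell types in the libraries. The 3 libraries form 1 group, so every comparison lies between cell classes or cell states within libraries, and p-values reach no further than the spread between these 3 pools. Nothing in the labels says whether the pools shared animals.

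Libraries 1, 2 and 3 held 6359, 6707 and 9468 analysed cells with median counts of 7979, 7264 and 6698 UMIs. They shared 13 to 23 cell barcodes in pairs, at most 0.343% of the smaller library. Cells were classed by marker genes, with LEC defined by at least 1 UMI of Prox1 and 5 UMIs of Lyve1 and cells that passed a second class gate left out. This gave 11498 LEC, 375 fibroblasts, 94 mural cells, 27 glia, 252 myeloid cells, 117 T cells, 59 plasma cells and 643 epithelial cells. Of the LEC markers not used by the gate, Flt4 (1563 ± 99.3 CPM), Ccl21a (10301 ± 1196 CPM), Reln (1820 ± 127 CPM) and Pdpn (247 ± 8.84 CPM) were high in LEC (SD, n = 3), and Mmrn1 had no UMI in any class.

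The gate for blood endothelial cells (BEC) did not separate them from LEC. Emcn, Gpihbp1 and Cd300lg of its 6 genes were also present in LEC, and 2563, 2033 and 2605 cells of libraries 1, 2 and 3 passed both the LEC and the BEC gate. In all 7884 cells passed more than 1 gate of any kind, and the 384 cells left as BEC held Lyve1 at 2227 ± 382 CPM, against 4219 ± 363 CPM in LEC (SD, n = 3). A stricter BEC class, chosen after this was seen, asked for at least 2 of Plvap, Flt1 and Ly6c1. Its 39, 73 and 40 cells in libraries 1, 2 and 3 held Lyve1 at 42.8 ± 21.7 CPM (SD, n = 3) and stand for BEC below unless stated otherwise. Counting every cell of the LEC gate as LEC, 18954 cells in all, gave Il33 at 403 ± 33.5 CPM and Il7 at 153 ± 4.65 CPM (SD, n = 3).

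As background, Il33 is a nuclear cytokine of the IL-1 family that is released from damaged barrier and stromal cells and acts through Il1rl1 (ST2) on type 2 innate lymphoid cells, regulatory T cells and mast cells. Il7 keeps T cells and innate lymphoid cells alive through Il7r and the shared chain Il2rg, and lymphatic endothelium and fibroblastic stroma are known sources. Csf1 maintains macrophages through Csf1r. Tnfsf11 signals through Tnfrsf11a, is held back by the decoy Tnfrsf11b, and in the gut induces the specialised M cells over lymphoid follicles. Tgfb1 and Tgfb2 are secreted in latent form, bound to Ltbp proteins. Latent Tgfb1 is also held by Lrrc32 or Nrros, and is freed by integrins and thrombospondin.

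The genes lie apart in the genome. On GRCm38 Il33 lies on the plus strand of chromosome 19 from 29925114 to 29960718, and Il7 on the minus strand of chromosome 3 from 7569994 to 7613760. Csf1 is on the minus strand of chromosome 3 from 107741048 to 107760469 and Tnfsf11 on the minus strand of chromosome 14 from 78277445 to 78308043. Tgfb1 is on the plus strand of chromosome 7 from 25687002 to 25705077, and Tgfb2 on the minus strand of chromosome 1 from 186622792 to 186705989. RefSeq promoters of build GRCm38.p6 were at hand for 5 of the 6 genes, and Il33 has a pair of start sites, which 3′ counts do not tell apart. The 250 bases before both Il33 starts and the Tgfb2 start are shown because Il33 was highest in LEC and Tgfb2 differed with immediate-early RNA within LEC. Capitals mark the TATA box letters TATAAA.
Il33 upstream start, chr19:29924863-29925112, plus strand: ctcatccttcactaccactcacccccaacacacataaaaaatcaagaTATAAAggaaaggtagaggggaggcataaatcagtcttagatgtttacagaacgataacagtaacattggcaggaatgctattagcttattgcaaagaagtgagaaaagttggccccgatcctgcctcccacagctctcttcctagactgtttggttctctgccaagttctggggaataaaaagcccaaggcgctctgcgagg
Il33 downstream start, chr19:29945540-29945789, plus strand: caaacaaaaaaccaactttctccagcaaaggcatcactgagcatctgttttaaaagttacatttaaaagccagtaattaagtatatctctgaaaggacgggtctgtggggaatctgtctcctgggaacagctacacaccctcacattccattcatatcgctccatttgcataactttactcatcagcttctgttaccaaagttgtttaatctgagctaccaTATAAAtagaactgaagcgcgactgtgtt
Tgfb2 start, chr1:186705990-186706239, minus strand: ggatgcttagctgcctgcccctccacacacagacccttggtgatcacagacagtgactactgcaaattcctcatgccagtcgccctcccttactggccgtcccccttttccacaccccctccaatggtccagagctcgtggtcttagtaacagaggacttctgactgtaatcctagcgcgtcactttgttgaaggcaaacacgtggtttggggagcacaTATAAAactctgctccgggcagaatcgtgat

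The first base of TATAAA lies 203 bases before the upstream Il33 start, 29 before the downstream one and 31 before the Tgfb2 start. Tnfsf11 has TATAAA on the opposite strand, where the window reads TTTATA, a stretch that begins 32 bases before the start. On either strand TATAAA stood in 12.4% of 32851 promoter windows of the same length. The letters TGANTCA of AP-1, in 6.75% of windows, and the ETS core GGAAGT, in 19.7%, were in none of the 6 windows of these genes. Guanine and cytosine made up 45.2% and 39.6% of the upstream and downstream Il33 windows and 75.2% of the Tgfb1 window.

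Il33 stood at 433, 409 and 390 CPM in LEC of libraries 1, 2 and 3. Fibroblasts held 73.2, 99.2 and 126 CPM, and BEC 4.62, 46.3 and 14.8 CPM. Those BEC values rest on 1, 27 and 3 Il33 UMIs in libraries 1, 2 and 3. All LEC values lay above all values of the other classes, and fibroblasts did not overlap with BEC. The log2 fold change of LEC was 2.07 ± 0.15 over fibroblasts (approximate SE, edgeR quasi-likelihood test, adjusted p = 4.12e-08), 3.77 ± 0.23 over BEC (adjusted p = 8.66e-59) and 5.15 ± 0.18 over epithelial cells (adjusted p = 9.68e-10), and the fitted fold over myeloid cells was 68.8 (adjusted p = 1.01e-77). Over BEC the log2 fold change was 5.43 without library 2 and 4.66 in thinned cells, and over myeloid cells it was 4.59 with stricter gates.

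Il33 was listed at 0 in the 27 glia, where 3 UMIs would give 118, 29.3 and 70.3 CPM in libraries 1, 2 and 3. In epithelial cells Il33 stood at 10.6 ± 2.37 CPM (SD, n = 3), 2.57% of the LEC mean. Epithelial cells held the lymphatic genes Lyve1 at 0.456% and Ccl21a at 0.667% of the LEC mean, and the part of free lymphatic RNA was not tested. Fibroblasts held Il33 at 24.2% of the LEC mean, with Lyve1 there at 0.454% and Ccl21a at 1.17%. BEC held Il33 at 5.33%, Lyve1 at 1.01%, Ccl21a at 1.42% and Flt4 at 7.28% of the LEC mean.

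Il7 was at 150, 166 and 159 CPM in LEC of libraries 1, 2 and 3. In fibroblasts it was at 12.2, 6.57 and 5.11 CPM and in BEC at 4.62, 5.15 and 0 CPM. No library of another class came near the LEC values. Its log2 fold change in LEC was 4.57 ± 0.20 over fibroblasts (edgeR, adjusted p = 1.41e-10), 5.26 ± 0.39 over BEC (adjusted p = 6.92e-40), 6.39 ± 0.41 over myeloid cells (adjusted p = 6.43e-54) and 5.39 ± 0.16 over epithelial cells (adjusted p = 6.04e-10). Without library 2 it was 6.01 over BEC and 7.07 over myeloid cells, with stricter gates 4.91 over myeloid cells, and in thinned cells 4.50 over BEC and 4.39 over epithelial cells. BEC held 4 Il7 UMIs in all, so the pooled ratio of LEC to BEC was 39.6 with an exact counting interval of 15.5 to 145. Below LEC the classes with Il7 UMIs ran from 0.784 CPM in mural cells to 9.78 CPM in glia, and their libraries overlapped. The glial value rests on 3 UMIs, all in library 2.

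**Figure D1:**
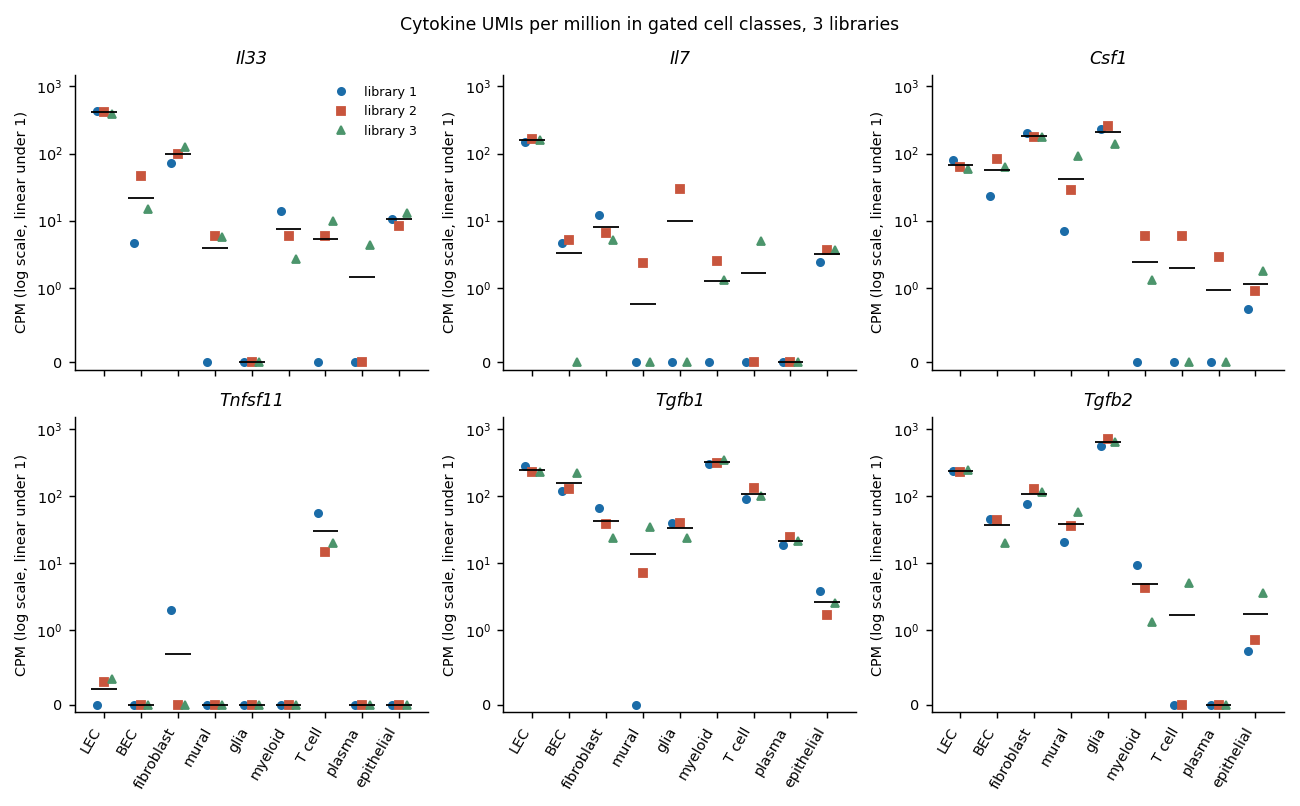
CPM of each gene (log scale above 1, linear below) in 9 gated classes, with 1 point per library and a bar at the mean of 3 libraries; BEC is the 3-gene class. Il33 and Il7 are highest in LEC in every library, Csf1 and Tgfb2 are higher in glia, Tgfb1 is higher in myeloid cells, and Tnfsf11 is highest in T cells.

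Csf1 was lower in LEC than in fibroblasts. LEC held 79.2, 64.0 and 59.6 CPM in libraries 1, 2 and 3, fibroblasts 199, 179 and 175 CPM, and the 27 glia 235, 254 and 141 CPM. Glia and fibroblasts overlapped, and neither overlapped with LEC. The glial values rest on 6, 26 and 6 Csf1 UMIs in libraries 1, 2 and 3 and were not tested. The log2 fold change of LEC over fibroblasts was -1.42 ± 0.10 (edgeR, adjusted p = 2.83e-08). BEC held 23.1, 84.0 and 64.0 CPM, which spanned the LEC values, and the log2 fold change of LEC over BEC was 0.02 ± 0.23 (adjusted p = 0.968). Over myeloid cells, the class that carried the receptor Csf1r, it was 4.08 ± 0.38 (adjusted p = 3.43e-25), with Csf1 at 2.41 ± 3.10 CPM there (SD, n = 3). Without library 2 the log2 fold change was 5.79 over myeloid cells and 0.68 over BEC.

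T cells held 14 of the 92 Tnfsf11 UMIs, which gave 55.8, 14.7 and 20.0 CPM in libraries 1, 2 and 3 and a mean of 30.2 ± 22.3 CPM (SD, n = 3). LEC held 19 UMIs in 2 cells of 11498, and both cells also had Il7r, the receptor that marks lymphoid cells. Among the 35 positive cells, 23 had Il7r, 14 the T cell gene Cd3e, 14 the lymphoid cytokine Il22 and 7 the fibroblast gene Dcn. Cells that passed more than 1 gate held the most, 31 UMIs in 14 cells, of which 10 had Ptprc and 6 had Dcn. Of 1201 cells that passed no class gate, 9 held 27 of the UMIs, and 7 of these 9 had Il22. BEC, mural, glial, myeloid, plasma and epithelial cells had 0 Tnfsf11 UMIs. It did not pass the filter on low counts in any comparison and was not tested.

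Tgfb1 was high in LEC and higher still in myeloid cells. LEC of libraries 1, 2 and 3 held 285, 229 and 225 CPM, myeloid cells 296, 314 and 349 CPM, and BEC 120, 125 and 221 CPM. Every myeloid value lay above every LEC value, though by little, and BEC stood below LEC. The log2 fold change of LEC was -0.45 ± 0.19 over myeloid cells (edgeR, adjusted p = 0.0335), 0.64 ± 0.17 over BEC (adjusted p = 0.0011), 2.66 ± 0.16 over fibroblasts (adjusted p = 6.53e-09) and 6.47 ± 0.19 over epithelial cells (adjusted p = 5.66e-10). The call over myeloid cells was lost without library 2 (adjusted p = 0.239), without library 3 (0.339), in DESeq2 (0.0793), with stricter gates (0.0567) and with all cells of the LEC gate (0.0934). The call over BEC was lost without library 1 (0.0921) and in DESeq2 (0.107). Over epithelial cells the log2 fold change was 5.88 with stricter gates and 5.75 in thinned cells. T cells held Tgfb1 at 107 ± 22.5 CPM (SD, n = 3).

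Tgfb2 was at 239, 231 and 242 CPM in LEC of libraries 1, 2 and 3. Glia held 549, 714 and 633 CPM, fibroblasts 75.3, 128 and 117 CPM, and BEC 46.2, 44.6 and 19.7 CPM. None of these overlapped with LEC. Too few glia were present for a test, and their pooled level was higher, with a pooled ratio of LEC to glia of 0.356 (counting interval 0.297 to 0.432). The log2 fold change of LEC was 1.15 ± 0.13 over fibroblasts (edgeR, adjusted p = 5.71e-06), 2.52 ± 0.22 over BEC (adjusted p = 4.90e-28), 5.91 ± 0.35 over myeloid cells (adjusted p = 6.78e-62) and 7.28 ± 0.28 over epithelial cells (adjusted p = 1.93e-09). Without library 3 it was 5.26 over myeloid and 7.92 over epithelial cells, with stricter gates 4.71 and 6.39 over the same classes, and in thinned cells 6.25 over epithelial cells.

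Of the 5 tested cytokine genes, LEC were higher than BEC for 4 and lower for none, where 26.4% of 12066 tested genes were called, 13.7% higher and 12.7% lower. Against the BEC class of the first gate, Il33, Il7 and Tgfb2 were called higher, with log2 fold changes of 0.64, 0.71 and 0.60 (2.70, 3.59 and 2.22 with stricter gates), and 17.4% of 12178 genes were called, 7.55% higher and 9.81% lower. Against fibroblasts 4 were higher and 1 lower (52.5% of 13121 genes called, 27.8% higher and 24.8% lower), against myeloid cells 4 were higher and 1 lower (54.5% of 12514, 34.1% higher and 20.4% lower), and against epithelial cells all 5 tested were higher (79.6% of 13541, 43.7% higher and 35.9% lower). The median log2 fold change of the 5 genes was 2.52 against BEC, 2.07 against fibroblasts, 5.91 against myeloid cells and 5.79 against epithelial cells. Over all tested genes it was 0.16, 0.06, 0.37 and 0.19 in the same order. These medians are a description and no test of the set, since earlier results of these data were known when the genes were chosen. A gene could pass the filter on low counts through its LEC counts alone, and Tnfsf11, low in LEC, did not pass it. CPM ratios lay above the fitted values by 0.19 on the log2 scale in the median gene against epithelial cells.

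**Figure D2:**
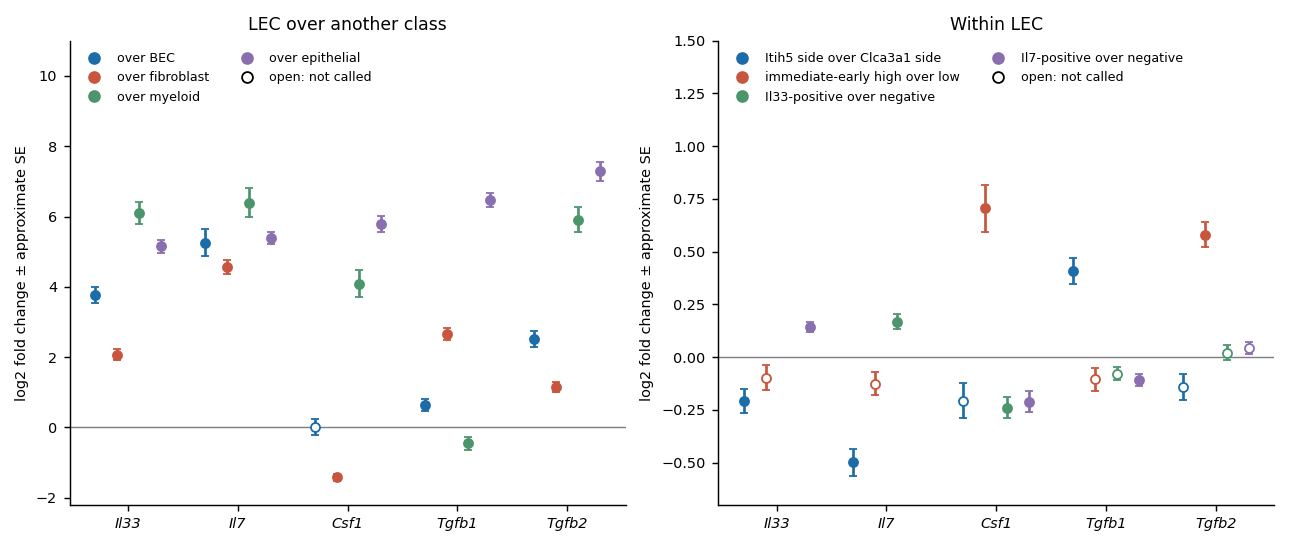
Fitted log2 fold change with approximate SE of the 5 tested genes, left for LEC over 4 other classes and right between LEC states; filled points passed an adjusted p of 0.05 and open points did not. Between classes Csf1 over fibroblasts and Tgfb1 over myeloid cells are the negative calls; within LEC every fold change stays below 1 on the log2 scale.

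The receptors of these cytokines had their highest levels in different classes. Csf1r was at 673 ± 137 CPM in myeloid cells and at 0.347 ± 0.221 CPM in LEC (SD, n = 3). Il7r was at 395 CPM in T cells and at 0.364 ± 0.422 CPM in LEC. Il1rl1, the Il33 receptor, was near 0 in every class, with at most 2.73 CPM in myeloid cells. Tnfrsf11a was at 46.6 CPM in LEC, 37.1 CPM in epithelial cells and 36.7 CPM in myeloid cells, and its decoy Tnfrsf11b at 0.0485 CPM in LEC, 37.1 CPM in fibroblasts and 55.9 CPM in mural cells.

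LEC and BEC both carried the TGF-beta receptor Tgfbr2, at 958 ± 25.2 CPM in LEC and 713 ± 30.6 CPM in BEC (SD, n = 3; log2 fold change 0.38 ± 0.14, edgeR, adjusted p = 0.0252). The endothelial coreceptor Eng and the receptor Acvrl1 were lower in LEC, Acvrl1 at 60.4 ± 3.82 CPM against 359 ± 69.0 CPM in BEC (log2 fold change -2.60 ± 0.16, adjusted p = 3.31e-58). Of 8 receptors tested against BEC, 1 was higher in LEC, 3 were lower and 4 did not pass, where 26.4% of all tested genes were called. Il2rg, the chain shared by Il7r, was at 86.0 ± 23.1 CPM in LEC, against 3.63 ± 2.17 CPM in fibroblasts (SD, n = 3; log2 fold change 4.78 ± 0.23, adjusted p = 4.86e-10).

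**Figure D3:**
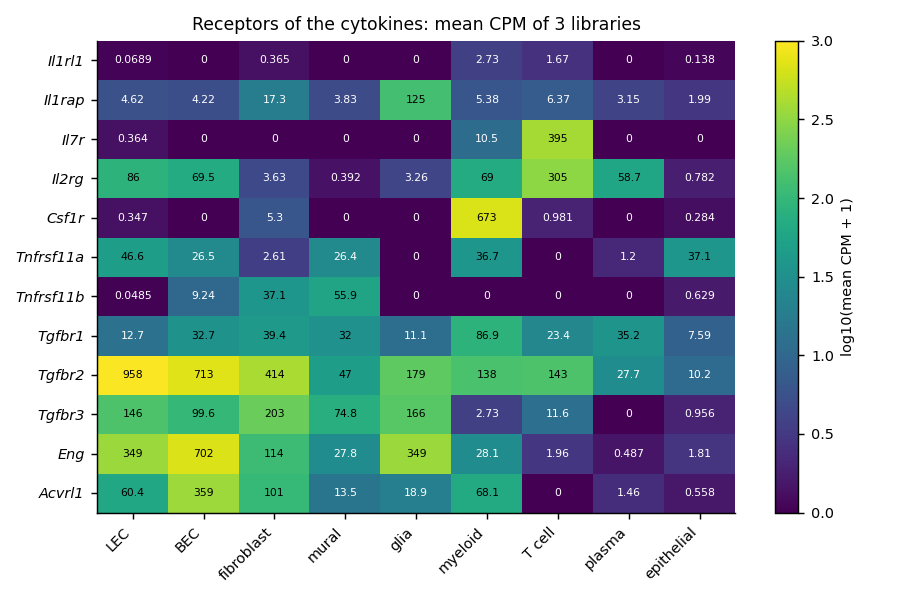
Mean CPM over 3 libraries of 12 receptor genes (rows) in 9 classes (columns), coloured by log10(CPM + 1) with the mean printed in each cell. Csf1r is highest in myeloid cells and Il7r in T cells, while Tgfbr2 is highest in LEC and BEC.

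Among genes that hold or free latent TGF-beta, Itgav, one chain of integrins that free latent Tgfb1, was at 191 ± 41.7 CPM in LEC and 9.02 ± 9.25 CPM in BEC (SD, n = 3). The log2 fold change was 4.25 ± 0.32 (edgeR, adjusted p = 1.56e-39). The listed integrin chains Itgb6 and Itgb8 did not pass the filter on low counts against BEC. Itgb6 was called lower in LEC than in epithelial cells, and Itgb8 lower than in fibroblasts. Nrros, which anchors latent Tgfb1 on macrophages and microglia, was at 7.87 ± 1.45 CPM in LEC, 74.9 ± 30.4 CPM in BEC and 146 ± 63.0 CPM in myeloid cells. The latent-form carrier Ltbp4 was at 1032 ± 71.6 CPM in LEC, against 19.6 ± 12.7 CPM in myeloid cells. Ltbp2 was at 0.0574 CPM in LEC and 21.7 ± 5.48 CPM in fibroblasts. Of 8 such genes tested against BEC, 3 were higher in LEC and 4 lower, where 13.7% of all tested genes were higher and 12.7% lower. Of 10 tested against fibroblasts, 3 were higher and 5 lower, where 27.8% of all tested genes were higher and 24.8% lower.

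Other cytokines divided between the classes in different ways. Tgfb3 went with Tgfb2 in LEC, at 114 ± 10.0 CPM against 0.572 ± 0.990 CPM in BEC (SD, n = 3; log2 fold change 6.76 ± 0.55, adjusted p = 2.18e-33). Tnfsf10 (TRAIL) was at 159 ± 12.8 CPM in LEC and 6.68 ± 2.93 CPM in fibroblasts. The granulocyte factor Csf3 was at 0.785 ± 0.0977 CPM in LEC and 239 ± 220 CPM in BEC (SD, n = 3), where the libraries held 9.24, 259 and 448 CPM. Il34, the other ligand of Csf1r, was at 0.106 ± 0.0422 CPM in LEC and 51.1 ± 7.86 CPM in fibroblasts. Il1b was at 1.15 ± 0.840 CPM in LEC and 1586 ± 390 CPM in myeloid cells, and Il18 at 0.395 ± 0.291 CPM in LEC and 96.3 ± 15.6 CPM in epithelial cells. Of 12 tested against BEC, 4 were higher in LEC and 6 lower, and of 16 against fibroblasts, 4 were higher and 9 lower, against the same shares of all tested genes.

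Genes whose level followed each cytokine over the 15 sums of 5 classes in 3 libraries were ranked by Pearson r of log2(CPM + 1) among 9337 genes, as a description in which the sums of a library share mice, run and depth. Il33 was closest to Cyp2d22 (r = 0.988), Slc16a12 (0.982) and Capns1 (0.982), and Il7 to Aplp2 (0.993), Lbp (0.992) and Reep3 (0.988). Csf1 was closest to Sept4 (0.994), Fstl1 (0.991) and Lamb1 (0.990). Tgfb1 was closest to Fam129a (0.991), Slc9a9 (0.990) and Wnk1 (0.987), and Tgfb2 to Msrb3 (0.991), Abi3bp (0.987) and Kcnj8 (0.987). The BEC sums here were those of the first gate, and Tnfsf11, under 20 CPM in these classes, was not ranked.

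Within LEC, Il33 was widespread. After each cell was thinned to 3000 UMIs, it was detected in 69.2%, 67.2% and 65.7% of LEC in libraries 1, 2 and 3 (exact 95% intervals 67.5 to 70.9, 65.3 to 68.9 and 64.5 to 67.0, counting error only). The mean share was 67.4% ± 1.76, against 3.24% in T cells (SD, n = 3), and a Poisson count of the same mean gives 71.5%. Il7 was detected in 35.9% ± 1.20 of LEC, with 38.0% from a Poisson count and no positive plasma cell. Tgfb1 was detected in 48.3% ± 3.65 (Poisson 51.7%, epithelial cells 1.49%), Tgfb2 in 44.6% ± 1.02 (Poisson 51.0%, no T cell) and Csf1 in 15.3% ± 1.85 (Poisson 18.0%, plasma cells 1.08%). The classes set beside LEC here are ones where the gene was low. Tgfb1 was detected in 63.4% of myeloid cells, Tgfb2 in 74.4% of glia, and Csf1 in 41.6% of fibroblasts and 44.7% of glia. Il33 and Il7 had their highest shares in LEC.

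Every observed share in LEC thus lay under its Poisson value. The variance of the thinned counts over their mean was 1.25 ± 0.0550 for Il33, 1.15 ± 0.0416 for Il7 and 1.18 ± 0.0197 for Tgfb1, and higher for Csf1 (1.54 ± 0.223) and Tgfb2 (1.55 ± 0.0881), where a Poisson count has 1 (SD, n = 3). A single LEC had up to 19 thinned Tgfb2 UMIs. Before thinning the shares were 86.5% for Il33, 59.1% for Il7, 28.5% for Csf1, 72.4% for Tgfb1 and 66.0% for Tgfb2. Tnfsf11 was detected in 1 of 11050 thinned LEC.

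Pairs of cytokines were detected together nearly as often as their shares gave. Il33 and Il7 were found together in 2736 LEC where their shares gave 2655, and the ratio was 1.04, 1.05 and 1.01 in libraries 1, 2 and 3. Il33 and Csf1 were found together less than their shares gave, with ratios of 0.905, 0.955 and 0.943, and so were Tgfb1 and Tgfb2, with 0.927, 0.976 and 0.970. The other 7 pairs without Tnfsf11 had means between 0.966 and 1.03, and in each of these the libraries lay on both sides of 1. At 5000 UMIs the mean ratio of Il33 and Csf1 was 0.992 ± 0.0160, against 0.934 ± 0.0257 at 3000 UMIs (SD, n = 3). At that depth Il7 with Csf1 and Csf1 with Tgfb1 lay below 1 in all 3 libraries (0.913 to 0.959 and 0.977 to 0.999) and Il33 with Tgfb2 above 1 (1.01 to 1.02), while Il33 with Il7 stayed above 1 (1.02 to 1.04) and Tgfb1 with Tgfb2 below 1 (0.970 to 0.997).

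**Figure D4:**
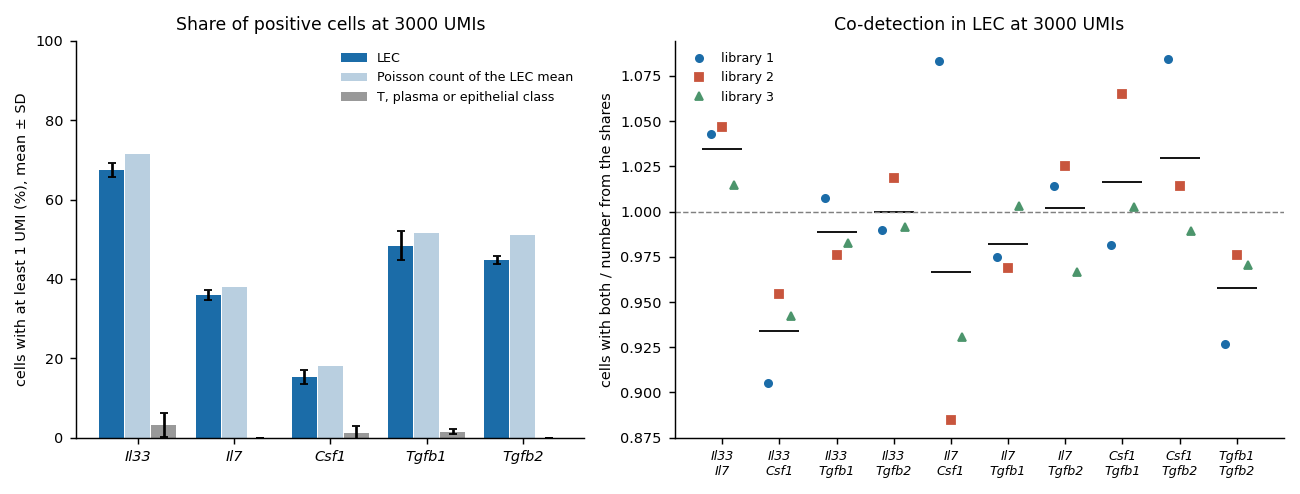
Left, share of cells with at least 1 UMI after thinning to 3000 UMIs (mean ± SD of 3 libraries) for LEC, for a Poisson count of the LEC mean, and for the T, plasma or epithelial class, where the gene was low. Right, cells with both genes over the number their shares give, 1 point per library and a bar at the mean. Il33 and Il7 lie above 1 in all 3 libraries, and Il33 with Csf1 and Tgfb1 with Tgfb2 below 1 in all 3.

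LEC were split by the genes Itih5 and Clca3a1, each detected without the other in thinned cells, into 3106 Itih5-side and 1374 Clca3a1-side cells. Il7 was at 139, 157 and 142 CPM on the Itih5 side of libraries 1, 2 and 3, against 196, 195 and 203 CPM on the Clca3a1 side. The sides did not overlap, with a log2 fold change of -0.50 ± 0.06 (edgeR, adjusted p = 4.13e-07). Tgfb1 went the other way, at 321, 255 and 248 CPM on the Itih5 side and 222, 187 and 189 CPM on the Clca3a1 side (0.41 ± 0.06, adjusted p = 5.91e-06).

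Il33 was at 417 ± 16.4 CPM on the Itih5 side and 468 ± 55.6 CPM on the Clca3a1 side (SD, n = 3), with a log2 fold change of -0.21 ± 0.06 (adjusted p = 0.00893). That call was lost without the replicate block (adjusted p = 0.154), without library 1 (0.111) or 2 (0.102), in DESeq2 (0.0949), in thinned cells (0.0757) and with all cells of the LEC gate (0.0513). Csf1 (-0.21 ± 0.08, adjusted p = 0.0748) and Tgfb2 (-0.14 ± 0.06, adjusted p = 0.110) did not pass, though with stricter gates both did, at 0.0163 and 0.00301. Of the 5 genes 1 was thus higher on the Itih5 side and 2 lower, where 20.8% of 10841 tested genes were called, 10.7% higher and 10.1% lower.

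The largest other differences between the sides were Ptgs2 (log2 fold change 4.70 ± 0.30), Mki67 (3.76 ± 0.24), Thrsp, Basp1 and Lrrn2 on the Itih5 side, and Slco2a1 (-3.19 ± 0.17), Pkhd1l1 (-3.17 ± 0.14), Tgfbi, Fmo1 and Chp2 on the Clca3a1 side. Tgfb3 was at 129 ± 8.14 CPM on the Itih5 side and 93.8 ± 11.1 CPM on the Clca3a1 side (SD, n = 3; 0.42 ± 0.07, adjusted p = 4.75e-05). The TGF-beta releasing thrombospondin Thbs1 was at 768 ± 91.0 CPM on the Itih5 side and 442 ± 11.4 CPM on the Clca3a1 side (0.74 ± 0.06, adjusted p = 7.40e-11). Of 11 other cytokines tested 6 were higher on the Itih5 side and none lower, where 10.7% of all tested genes were higher and 10.1% lower.

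Immediate-early genes such as Fos and Egr1 respond quickly to stimulation and to tissue dissociation. LEC of each library were ranked by the thinned UMIs of 12 such genes and cut into a low, a middle and a high group of near-equal size, in which the list took 5.12% ± 0.472 of UMIs in the high group and 0.481% ± 0.264 in the low group (SD, n = 3). These groups are ranges of a score: 314, 279 and 472 cells of libraries 1, 2 and 3 lay within 5 UMIs of a cut. Tgfb2 was at 278, 258 and 266 CPM in the high group of libraries 1, 2 and 3, against 197, 213 and 229 CPM in the low group. The groups did not overlap, and the log2 fold change was 0.58 ± 0.06 (edgeR, adjusted p = 9.23e-06). Csf1 was at 80.2, 71.4 and 76.3 CPM in the high group and 74.7, 52.5 and 43.9 CPM in the low group, higher within each library though the groups overlap (0.71 ± 0.11, adjusted p = 3.51e-04). Both fitted rises are larger than the rises in CPM. In this comparison the CPM ratio of the median gene lay 0.25 below its fitted log2 fold change.

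Il33 averaged 463, 411 and 365 CPM in the low, middle and high groups, Il7 181, 158 and 139 CPM, and Tgfb1 272, 257 and 213 CPM. Their CPM was thus lower in the high group in 3 of 3 libraries. The fitted log2 fold changes of the high over the low group were -0.10 ± 0.06 for Il33 (edgeR, adjusted p = 0.239), -0.13 ± 0.05 for Il7 (0.0971) and -0.10 ± 0.06 for Tgfb1 (0.172), and none passed. In the median gene the CPM ratio lay 0.25 below the fitted log2 fold change, and the cause of that shift was not tested. Il7 did pass without library 1 (-0.16, adjusted p = 0.0211), with stricter gates (-0.14, 0.0388) and in thinned cells (-0.22, 0.0179).

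Of the 5 genes 2 were higher in the high group and none lower, where 32% of 11613 tested genes were called, 18.2% higher and 13.8% lower. The largest rises were in Egr4 (6.45 ± 0.15), the chemokine Cxcl2 (5.30 ± 0.25), Nr4a3, Egr3 and Cxcl1, and the largest falls in the cell-cycle genes Top2a (-4.44 ± 0.29), Cenpf (-4.44 ± 0.23), Ube2c, Prc1 and Mki67. Thbs1 was at 884 ± 107 CPM in the high group, against 411 ± 47.2 CPM in the low group (SD, n = 3; 1.35 ± 0.06, adjusted p = 4.83e-09). The IL-6 family cytokine Lif was at 36.9 ± 16.3 CPM and 3.94 ± 2.21 CPM in the same order (3.45 ± 0.12, adjusted p = 1.24e-09).

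**Figure D5:**
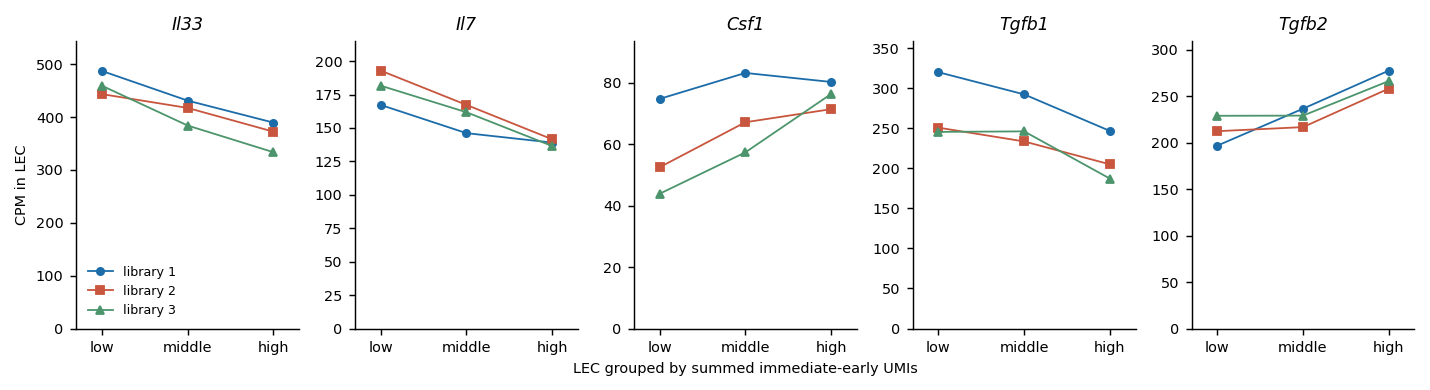
CPM of 5 genes in LEC grouped by the summed immediate-early UMIs (low, middle, high), 1 line per library. Tgfb2 and Csf1 end higher in the high group in every library, while Il33, Il7 and Tgfb1 end lower in CPM, a fall that did not pass the fitted test.

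Il7 and Il33 went slightly together. In 7405 Il33-positive LEC, Il7 was at 156, 177 and 163 CPM in libraries 1, 2 and 3, against 137, 146 and 151 CPM in Il33-negative LEC. All positive values lay above all negative ones, and the log2 fold change was 0.17 ± 0.04 (edgeR, adjusted p = 0.0011). In 3963 Il7-positive LEC, Il33 was at 468, 436 and 411 CPM, against 417, 395 and 378 CPM in Il7-negative LEC (0.14 ± 0.02, adjusted p = 1.93e-06), a difference within each library though the groups overlap. Csf1 was lower in Il33-positive LEC (-0.24 ± 0.05, adjusted p = 4.92e-04) and in Il7-positive LEC (-0.21 ± 0.05, adjusted p = 0.00155), and Tgfb1 was lower in Il7-positive LEC (-0.11 ± 0.03, adjusted p = 0.00489). In the Il7 split Csf1 was lower in 2 of 3 libraries. Tgfb2 did not pass in either split.

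Of the 4 genes tested in the Il33 split 1 was higher and 1 lower, where 7.44% of 12232 genes were called (2.17% higher, 5.27% lower), and in the Il7 split 1 was higher and 2 lower, with 8.44% of 12187 called (3.23% higher, 5.2% lower). These calls rest on the pairing within libraries: without the replicate block Il7 in the Il33 split had an adjusted p of 0.946 and Il33 in the Il7 split 0.965, and DESeq2 gave 0.217 for Il7 in the Il33 split. The calls of Csf1 in the Il33 split and of Csf1 and Tgfb1 in the Il7 split were lost in DESeq2 (0.361, 0.545 and 0.544) and with all cells of the LEC gate (0.232, 0.148 and 0.698). Csf1 in the Il33 split lost its call without library 3 (adjusted p = 0.0648), and in the Il7 split it did so without library 3 too (0.213), as did Tgfb1 there without library 2 (0.155).

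Top2a, a DNA topoisomerase of dividing cells, was at 10.3 ± 2.86 CPM in Il33-positive LEC and 50.2 ± 15.7 CPM in Il33-negative LEC (SD, n = 3; log2 fold change -2.21 ± 0.09, adjusted p = 6.92e-21). It was at 5.79 ± 3.70 CPM in Il7-positive LEC and 33.0 ± 6.59 CPM in Il7-negative LEC (-2.49 ± 0.11, adjusted p = 6.03e-31). The proliferation marker Mki67 was lower in both (-1.95 ± 0.09 and -2.05 ± 0.09), as was the histone Hist1h1b (-2.60 ± 0.11 and -3.19 ± 0.15). Immediate-early genes were lower too, 10 of 12 in Il33-positive and 12 of 12 in Il7-positive LEC, with median log2 fold changes of -0.18 and -0.12 against 0.00 for all tested genes; their part in these splits was not tested.

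Higher in Il33-positive LEC were the Notch-modifying enzyme Lfng (0.37 ± 0.06), the zinc exporter Slc30a1 (0.31 ± 0.09), the kinase Bmx (0.31 ± 0.05), Hoxd4 and Fam117a. Il7-positive LEC were higher in Tgfbi (0.62 ± 0.06), Pkhd1l1 (0.54 ± 0.06), Rassf10, Clca3a1 (0.48 ± 0.05) and Stmn2. Tgfbi and Pkhd1l1 are also among the 5 strongest genes of the Clca3a1 side, where Il7 was higher. With cells that held any Mki67 or Top2a UMI left out, Il7 stayed higher in Il33-positive LEC (0.14, adjusted p = 0.00913) and Il33 in Il7-positive LEC (0.12, adjusted p = 0.00118).

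In 107 LEC with at least 2 thinned UMIs of Mki67 and Top2a together, a set chosen after the splits were seen and not tested, Il33 was at 218, 242 and 185 CPM in libraries 1, 2 and 3, and Il7 at 57.1, 47.9 and 71.4 CPM. In the 10805 LEC with none, Il33 was at 416 ± 24.0 CPM and Il7 at 161 ± 8.51 CPM (SD, n = 3). Tgfb2 was at 99.2 ± 54.7 CPM in the cycling cells and 240 ± 5.63 CPM in the others. Tgfb1 was at 199 ± 15.4 CPM and 247 ± 33.7 CPM in the same order, without overlap. Csf1 overlapped, at 72.3 ± 28.6 CPM and 67.9 ± 10.1 CPM.

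In 68 LEC with at least 2 thinned UMIs of the interferon-induced chemokine Cxcl9, Il33 was at 279, 250 and 224 CPM in libraries 1, 2 and 3 and Il7 at 57.8, 72.5 and 62.1 CPM, against means of 412 ± 22.3 CPM and 159 ± 8.21 CPM in LEC with no Cxcl9 UMI (SD, n = 3). Csf1 was at 366, 198 and 74.5 CPM there, against 67.0 ± 9.99 CPM. The 11 to 37 cells per library were too few in 1 library for a test. In 83 LEC with at least 2 thinned UMIs of the prostaglandin synthase Ptgs2, Il7 was at 89.7 ± 14.4 CPM, against 159 ± 7.57 CPM in LEC with none, and Tgfb1 at 318 ± 31.1 CPM, against 245 ± 31.6 CPM. The 41, 13 and 29 Ptgs2 cells of libraries 1, 2 and 3 held 27, 13 and 23 Il7 UMIs, and no test was run. LEC with at least 2 thinned UMIs of the interferon-stimulated gene Isg15 held Csf1 at 81.2 ± 10.4 CPM, against 59.4 ± 10.1 CPM in those with none. In LEC with at least 2 thinned UMIs of Nts, Il33 was at 365 ± 23.2 CPM, against 413 ± 21.9 CPM in LEC with none. It was lower in the Nts group within each library, a difference that was not tested. With the heat shock gene Hspa1a gated alike, Il33 was at 419 ± 28.5 CPM, against 409 ± 18.2 CPM in LEC with none, and the libraries overlapped. LEC with exactly 1 thinned UMI of a gate's genes are in neither of its groups.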

How the data were processed

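The authors deposited UMI counts without normalisation, as whole numbers for each gene and cell barcode. The tools named in the submitters' processing notes are bcl2fastq 2.2 and Cell Ranger 6.1.2 with build mm10, and the kit, per the labels, was 3′ chemistry version 3. Library totals were 58857545, 69231794 and 74571090 UMIs. Cells needed 500 genes and no more than 15% mitochondrial UMIs, which removed 572, 971 and 464 barcodes. No doublet caller was run, but cells passing more than 1 class gate were dropped. A class other than LEC needed 3 of 6 genes and 6 UMIs. The genes, lists and gates were chosen with earlier results of these data known. Counts summed by library and class, with 20 cells or more in every sum, were tested with edgeR 4.0.16 under R 4.3.3: filterByExpr, TMM, a quasi-likelihood fit with the library as block (the 2 sums of a library share mice and run), and Benjamini-Hochberg adjustment at 0.05 over tested genes other than gate genes. Mural, T, plasma and glial cells had too few cells for a test. SEs are approximate, from the fold change and the F statistic. Because spread is shared between genes, very small p-values rest on more than 3 libraries per gene. DESeq2 1.42.0, other gates, thinning to 3000 UMIs and leaving out a library were alternatives. Named genes were, by list and direction, the largest called fold between classes, and the 5 largest per direction within LEC, with the same sign in 3 libraries and 20 CPM. In simulated counts with 200 changed genes, 59.6% of changes of 1 and 86.9% of changes of 2 (log2) were recovered against fibroblasts (13152 genes), and 92.5% and 100% in the Il33 split (12259 genes). Of the genes left unchanged, 26 were called against fibroblasts and 15 in the Il33 split. Both sides were drawn from a shared mean per gene without a library effect, which differs from the real sums.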

Additional observations from a re-analysis of the deposited data

How the results depend on the processing

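Il33, Il7 and Tgfb2 kept their direction and their calls over BEC, fibroblasts, myeloid and epithelial cells under every alternative that could be run. Over all comparisons 362 fold changes of single cytokine genes kept direction and side of the threshold, 30 lost and 11 gained a call, and 12 changed sign, none of them called. The cause of these changes was not tested. Csf1 over BEC was -0.0394 without the replicate block, -0.0695 with stricter gates, -0.00598 with all cells of the LEC gate and -0.39 to 0.68 with a library left out. Against BEC of the first gate it was -0.0387 with stricter gates and -0.0605 to 0.64 with a library left out. In the immediate-early comparison all cells of the LEC gate gave 0.0018 for Il33 and 0.025 for Tgfb1. In the Il33 split Tgfb2 was -0.0311 in thinned cells, -0.0058 without Mki67 and Top2a UMIs and -0.0408 to 0.0646 with a library left out, and Tgfb1 was 0.0277 with all cells of the LEC gate. Without the replicate block, genes called numbered 1288 between the sides, 2141 between immediate-early groups, 50 in the Il33 split and 52 in the Il7 split, against 2260, 3718, 910 and 1028 with it. DESeq2 called 923, 1486, 213 and 263 in the same order. Thinned cells gave 1363 for BEC of the first gate, 410 for the Il33 split and 436 for the Il7 split. The 3-gene gate gave 3188 against 2114 for the first gate, and cells without Mki67 and Top2a gave 583 and 608 for the Il33 and Il7 splits. With a library left out, counts were 1249 to 1984 for BEC of the first gate and 4133 to 6753 for myeloid cells. Shares before thinning were 86.5% for Il33, 59.1% for Il7, 28.5% for Csf1, 72.4% for Tgfb1 and 66.0% for Tgfb2, and Tgfb2 in all cells of the LEC gate was at 229 CPM. Tests against T and mural cells and thinned myeloid cells were not run, since a library held too few cells.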
